A study of Mus musculus with 12 samples.

Results

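Integrins and the focal adhesion proteins that tie them to actin were followed across B16F10 mouse melanoma cells that had met an immunotherapy, T-cell granules or neither. The set holds 41 genes, 25 integrin subunits and 16 focal adhesion proteins, out of the 54232 genes of the count table. The members were taken by gene symbol, and 34 of the 41 were expressed well enough to be tested.

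Integrins are receptors made of 1 alpha and 1 beta chain. The alpha chain largely sets which ligand is bound, and the beta chain carries the tail on which talins and kindlins switch the receptor on. Talin, vinculin, tensins and the complex of integrin-linked kinase (ILK) with parvins then connect the receptor to actin, while focal adhesion kinase (FAK, encoded by Ptk2), paxillin and zyxin carry and sense the signal.

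RNA was sequenced in 12 libraries of B16F10, a melanoma line of C57BL/6 mice, in 4 groups of 3. WT cells were untreated. The relapsed lines ITF1, Rel and ITM were sorted from tumors that relapsed after immunotherapy and grown in culture before extraction, and Tumor 1, 3 and 4 were sorted from such tumors by flow cytometry and extracted at once. The study's methods give the immunotherapy as anti-CD40, TNFα and an antibody to TRP1 injected into the tumor, and the labels name no agent. The study also treated tumors by transfer of tumor-reactive T cells, and its RNA methods do not say which therapy the sequenced cells had met. Lyso cells had been incubated with lysosomes derived from T cells. The labels give an age of 6 weeks for all 4 groups. They give an incubation of 48 hours for Lyso, whereas the methods of the study give a shorter one. Those methods also place the Lyso cells on a low-adherence plate coated with poly-L-lysine and do not say on which surface the WT cells grew, so that the effect of the granules and that of the surface, which matters for adhesion genes, cannot be told apart. Each relapsed line is a line of its own, and its spread is that between lines. The labels do not say whether the libraries of WT or Lyso came from separate cultures, or those of Tumor from separate mice, and p-values there measure the spread between libraries. In the main fit of all 12 libraries the groups shared an estimate of the spread for each gene. The spread between the lines therefore also entered the p-values of comparisons that do not involve them.

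Levels are given as CPM, read counts scaled to an equal library total after TMM normalization. The depth on genes was 1667398 counts in WT 1, 2350129 in WT 2 and 16384021 in WT 3. It lay between 10895611 and 16402629 in the relapsed lines and Lyso and between 3102442 and 5049496 in Tumor. A floor of 3 counts was used, which is worth 1.7 CPM in WT 1 but 0.177 CPM in WT 3. All 10 melanocyte markers were above that floor in every library, with a summed level of 19810 to 37430 CPM. Summed markers of fibroblasts came to at most 39.45 CPM in WT and to 7707 to 10710 CPM in Tumor, where 10 of 10 were above the floor in every library, and those of myeloid cells to 15.3 to 30.6 CPM in WT and 55.9 to 82.4 CPM in Tumor. Of 8 endothelial markers 2 were above the floor in every WT library and 7 in every Tumor library. Of the 7 tested, Pecam1, Cdh5, Kdr, Flt1 and Tek were called higher in Tumor than in WT. Egfl7 was called lower (log2 fold change -0.80, adjusted p = 0.0174), and Eng was not called (-0.44, adjusted p = 0.0923). The summed level, mostly Eng, was 295.5 to 440.3 CPM in WT and 266 to 308 CPM in Tumor. Of 8 pericyte and smooth muscle markers 4 and 6 were above the floor in every library of WT and Tumor, at a summed 16.9 to 30.7 and 30.8 to 45.5 CPM. Of the 6 tested, Acta2, Tagln and Rgs5 were called higher in Tumor and 0 lower, with Des at a log2 fold change of -1.18 (adjusted p = 0.0957). The part of any of these cells in the levels of the members was not tested. Among the 20 members with a mean of at least 10 CPM in every group, WT 1 was the lowest WT library for 16 and WT 3 the highest for 13. The highest WT library lay a median of 1.53 times above the lowest, against 1.46 times in the relapsed lines, 1.12 times in Lyso and 1.18 times in Tumor.

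The Tumor libraries differed from WT in 13 of the 34 tested members (38.2%), where 19.0% of all 14924 genes tested were called at an adjusted p under 0.05. A call is that of edgeR in 1 fit of all 12 libraries unless another tool or setting is named. Of these 13 members, 10 were higher and 3 lower, and the median log2 fold change over the tested members was 0.42 against 0.00 over all genes tested. Some of the higher members passed the expression filter through groups in which they were higher. Among them were Itga2, and Itga11 and Itgal at 3 counts or fewer in every WT library. The share called is therefore a description of the members that passed. With at least 10 counts in every library compared 7 were called. That setting tests fewer members and fewer genes, and the share of all genes called under it was not set beside the 7. In Lyso 2 of 34 members were called (4.71% of all genes), and in the relapsed lines 2 of 34 (0.0402% of all genes, 6 genes in total). The beta 5 chain Itgb5 was called lower in all 3 comparisons, which share the WT libraries.

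**Figure D1:**
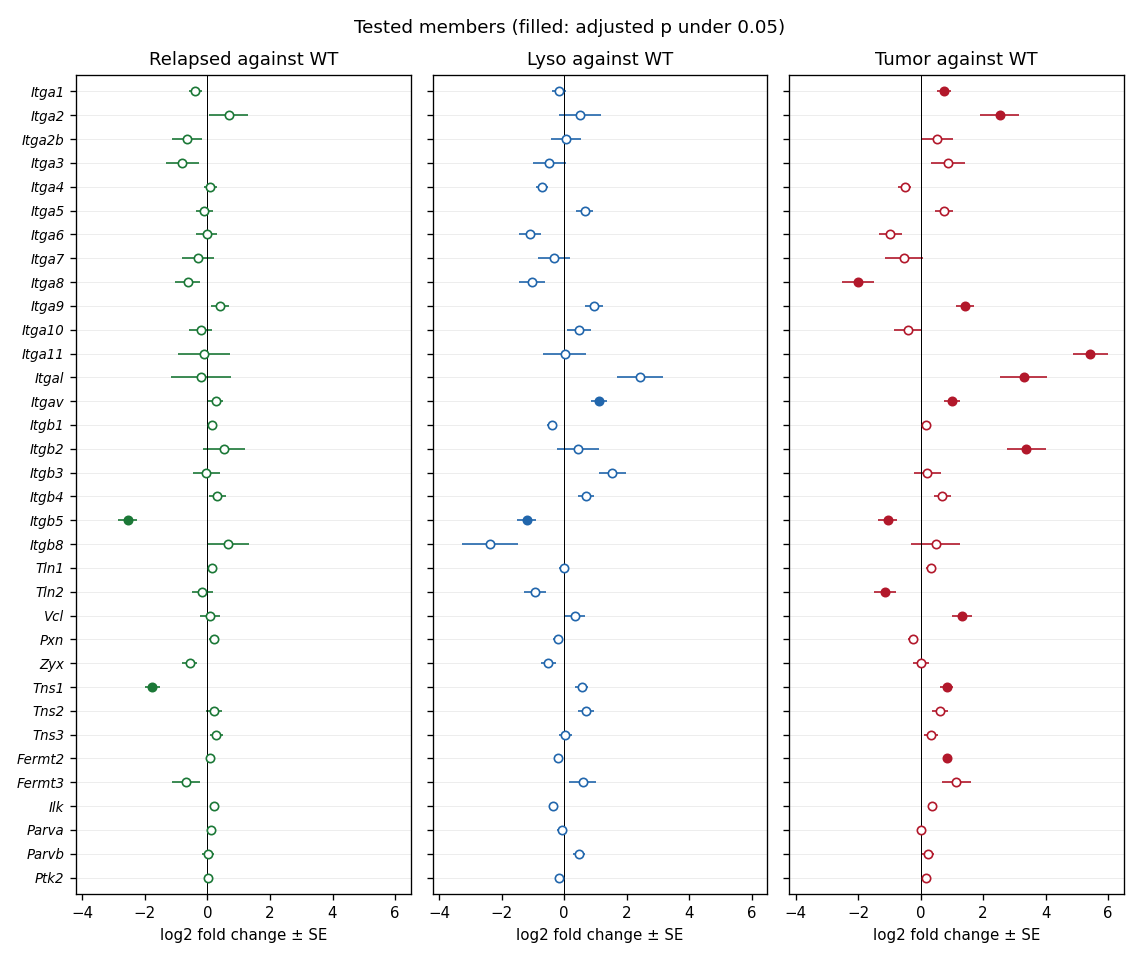
Log2 fold change (horizontal axis, ± SE) of the 34 tested members in the relapsed lines, Lyso and Tumor, each against WT with 3 libraries a group. Filled points passed an adjusted p under 0.05: 2 in the relapsed lines, 2 in Lyso and 13 in Tumor, with Itgb5 below 0 in each panel.

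The beta 1 chain was by far the most abundant beta subunit. Itgb1, which pairs with the largest number of alpha chains, was found at 628, 738 and 908 CPM in WT, 952, 851 and 702 CPM in ITF1, Rel and ITM, 514, 599 and 610 CPM in Lyso, and 826, 871 and 843 CPM in Tumor. The 3 Lyso libraries were the lowest of all 12. Compared with WT, the Itgb1 log2 fold change reached 0.16 ± 0.16 (SE) in Tumor (adjusted p = 0.539), 0.14 ± 0.16 in the relapsed lines (adjusted p = 0.789) and -0.40 ± 0.16 in Lyso (adjusted p = 0.194). None of these was called, and the value of the lines turned to -0.12 against WT 3 alone. Between Tumor and Lyso, whose libraries did not overlap, it was 0.56 ± 0.16 (adjusted p = 0.0215), a call that each of the 6 fits without 1 library lost. Per kilobase of exon, Itgb1 made up 90.7% ± 2.87 (SD, n = 3) of the summed beta subunit level in WT, 96.1% ± 1.36 in the relapsed lines, 86.4% ± 1.01 in Lyso and 92.7% ± 1.39 in Tumor.

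Itgb5 (chromosome 16, 33829665 to 33949338 of GRCm38), the chain that joins alpha v in a receptor for vitronectin, was the second beta subunit per kilobase in WT. It stood at 61.7, 34.6 and 40.2 CPM in WT, 9.37, 4.49 and 9.11 CPM in ITF1, Rel and ITM, 20.8, 16.6 and 21.2 CPM in Lyso, and 29.9, 16.9 and 19.1 CPM in Tumor. All 9 other libraries lay below every WT library, and the relapsed lines lay below every other library. Itgb5 was 5.85-fold lower in the relapsed lines than in WT (log2 fold change -2.55 ± 0.31, adjusted p = 0.0144), 2.29-fold lower in Lyso (-1.20 ± 0.29, adjusted p = 0.0375) and 2.07-fold lower in Tumor (-1.05 ± 0.31, adjusted p = 0.0304). Compared with the relapsed lines it was 2.83-fold higher in Tumor (log2 fold change 1.5 ± 0.31, adjusted p = 0.00411) and 2.55-fold higher in Lyso (1.35 ± 0.30, adjusted p = 0.015). The former held in all 6 fits without 1 library and the latter in 4.

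WT 1 was the highest of the WT libraries for Itgb5. Without it the log2 fold change was -2.31 in the relapsed lines (adjusted p = 0.0143), -0.95 in Lyso (adjusted p = 0.0786) and -0.80 in Tumor (adjusted p = 0.0716). Without WT 3, the only deep WT library, the adjusted p was 0.0932 in the relapsed lines, 0.0718 in Lyso and 0.057 in Tumor, and it also passed 0.05 in Tumor without Tumor 3 (0.123) or Tumor 4 (0.105) and in Lyso without any 1 of its libraries (0.101 to 0.149). With WT 3 as the only control the log2 fold change in Lyso was -1.05 (adjusted p = 0.183). In a fit of the relapsed lines and WT alone the log2 fold change was -2.56 with an adjusted p of 0.61.

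The promoter of Itgb5 is shown because the gene was the member that was lower than WT in each comparison. The bases before its RefSeq start site on the plus strand (chr16:33829415-33829664, GRCm38.p6) held none of the motifs searched, which were those of STAT (TTCNNNGAA), EGR (GCGTGGGCG or GCGGGGGCG), AP-1 (TGANTCA) and TEAD (GGAATG) and the CArG box of serum response factor (SRF), on both strands.
Itgb5: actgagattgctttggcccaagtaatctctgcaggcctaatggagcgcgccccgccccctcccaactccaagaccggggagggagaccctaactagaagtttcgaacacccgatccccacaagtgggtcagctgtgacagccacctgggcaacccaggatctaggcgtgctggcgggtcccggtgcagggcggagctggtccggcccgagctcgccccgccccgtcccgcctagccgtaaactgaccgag
The absence of these letters in this window says nothing of the factors themselves.

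Itgb3 (chromosome 11, 104608000 to 104670476), the other main partner of alpha v, went its own way in Lyso. It was found at 24.9, 24.9 and 38.5 CPM in WT, 19.5, 57.2 and 12.7 CPM in ITF1, Rel and ITM, 85.8, 89.6 and 92.6 CPM in Lyso, and 45.5, 32.2 and 30.6 CPM in Tumor. Every Lyso library was above every other library, and among the lines Rel was 4.5 times as high as ITM. The level in Lyso was 3.0-fold that of the relapsed lines (log2 fold change 1.58 ± 0.41, adjusted p = 0.0339), and Tumor was 2.49-fold lower than Lyso (-1.32 ± 0.42, adjusted p = 0.0378), of which the former held in 2 of 6 fits without 1 library and the latter in 0 of 6.

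Against WT the log2 fold change of Itgb3 in Lyso was 1.54 ± 0.43 with an adjusted p of 0.0622, and so it was not called. The adjusted p over the alternative settings ran from 5.79e-07 to 0.408, and DESeq2 (0.00603) and a fit of Lyso and WT alone (0.00161) called it, whereas WT 3 as the only control gave the highest value. In the relapsed lines and in Tumor the log2 fold change of Itgb3 against WT was -0.04 ± 0.43 (adjusted p = 1) and 0.22 ± 0.44 (adjusted p = 0.781), the former with a sign that turned without WT 3 (0.25), ITF1 (0.17) or ITM (0.31).

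The ratio of Itgb3 to Itgb5 CPM within a library was 0.404, 0.72 and 0.959 in WT. It was 2.08, 12.7 and 1.39 in ITF1, Rel and ITM, 4.12, 5.4 and 4.36 in Lyso, and 1.52, 1.9 and 1.6 in Tumor. No library outside WT reached down to the WT range, and the ratio is given as a description without a test. Per kilobase of exon, Itgb3 took up 2.42% ± 0.275 of the summed beta subunit level in WT and 9.32% ± 0.457 in Lyso (SD, n = 3).

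**Figure D2:**
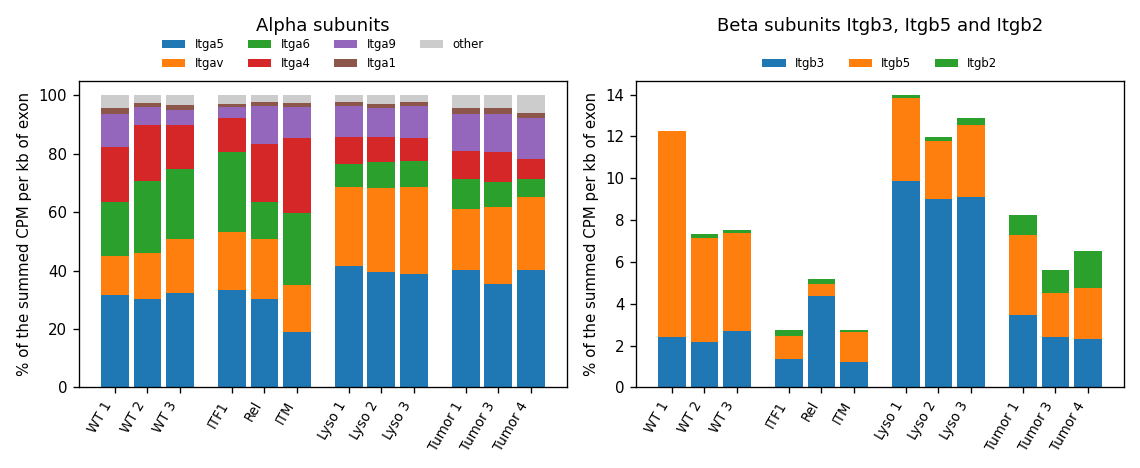
Share (vertical axis, %) of alpha subunits in the summed alpha level and of Itgb3, Itgb5 and Itgb2 in the summed beta level of each library, both in CPM per kilobase of exon. Itga5, Itgav, Itga6, Itga4, Itga9 and Itga1 are drawn singly, and the other alpha subunits are pooled. Itgb3 takes 9.02% to 9.85% of the beta level in Lyso and at most 4.39% elsewhere, and Itga5 with Itgav takes the largest part of the alpha level in Lyso and Tumor.

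Itgb2, the beta chain of leukocyte integrins, was at 0, 1.27 and 0.885 CPM in WT, where WT 3 alone passed 3 counts. It reached at most 1.92 CPM in the relapsed lines and 1.701 CPM in Lyso, and 6.501, 7.45 and 12.2 CPM in Tumor. The Tumor libraries were above all others, by 10.4-fold over WT (log2 fold change 3.38 ± 0.63, adjusted p = 0.00255), 7.23-fold over the relapsed lines (2.85 ± 0.51, adjusted p = 0.00169) and 7.61-fold over Lyso (2.93 ± 0.53, adjusted p = 0.00149), and each call held in all 6 fits without 1 library. Of the 10 myeloid markers 9 were above the floor in every Tumor library, whereas Adgre1, C1qa, C1qb and Tyrobp were at 0 in every WT library. Cd68, another of the 10, was not called in Tumor against WT (log2 fold change -0.31, adjusted p = 0.843). The summed myeloid markers came to 35.8 to 39.4 CPM in Lyso and to 14.7 to 47.5 CPM in the relapsed lines. Ptprc was called higher in Lyso than in WT (log2 fold change 5.53, adjusted p = 0.0136). The part of such cells in the level of Itgb2 was not tested, and in bulk RNA more cells of a type and more RNA per cell cannot be told apart.

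The remaining beta chains were scarce. Itgb4, which pairs with alpha 6 in hemidesmosomes, ranged from 3.28 to 6.32 CPM over the 12 libraries and was called in no comparison. Itgb8, an activator of latent TGF-beta, was at 0.0943 to 0.243 CPM in Lyso, 3 counts or fewer in each of those libraries, at 0.899 to 2.61 CPM in the relapsed lines and at 0.201 to 2.28 CPM in Tumor. It was called lower in Lyso than in the lines (log2 fold change -3.01 ± 0.75, adjusted p = 0.028, in 2 of 6 fits without 1 library) and higher in Tumor than in Lyso (2.84 ± 0.88, adjusted p = 0.0324, in 1 of 6), the latter with libraries that overlapped. Itgb6 had 1 count in all libraries together, and Itgb7, a lymphocyte chain, had 2 counts in WT, 11 in the relapsed lines, 28 in Lyso and 5 in Tumor, so that neither entered the test.

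Among the alpha subunits that read the RGD motif of fibronectin and vitronectin, Itgav rose in both Lyso and Tumor. Itgav (chromosome 2, 83724397 to 83806916), the alpha v chain that pairs with Itgb3, Itgb5 and others, was at 56.6, 95.8 and 124.9 CPM in WT, 143, 118 and 77.8 CPM in ITF1, Rel and ITM, 198, 199 and 216 CPM in Lyso, and 174, 216 and 177 CPM in Tumor. All 6 Lyso and Tumor libraries lay above the 6 others. The level in Lyso was 2.17-fold that of WT (log2 fold change 1.12 ± 0.25, adjusted p = 0.0254) and in Tumor 2.01-fold (1.0 ± 0.26, adjusted p = 0.0152), while in the relapsed lines the log2 fold change was 0.26 ± 0.25 (adjusted p = 0.747) and turned to -0.14 against WT 3 alone.

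WT 1 was the lowest library for Itgav. Without it the log2 fold change was 0.88 in Lyso (adjusted p = 0.0324) and 0.76 in Tumor (adjusted p = 0.0229). In Lyso the call was lost without WT 2 (adjusted p = 0.074) and without any 1 of the Lyso libraries (0.0686 to 0.0906), and with WT 3 as the only control the log2 fold change was 0.70 (adjusted p = 0.258). In Tumor it was lost without Tumor 3 (adjusted p = 0.0671).

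Itga5, the alpha chain of the main fibronectin receptor, was the most abundant alpha subunit per kilobase of exon in WT, at 16.6 CPM per kilobase against 12.1 for Itga6. With the longest coding transcript as the length, a choice added after the data were seen, Itga6 came to 25.3 and Itga5 to 18.7, so their order rests on the gene model. Itga5 was found at 62.3, 84.0 and 99.5 CPM in WT, 112, 79.1 and 41.8 CPM in ITF1, Rel and ITM, 140.5, 125.5 and 129 CPM in Lyso, and 155, 133.5 and 132 CPM in Tumor. The Lyso and Tumor libraries were above all others for this gene too, yet Tumor was called higher than the relapsed lines alone (1.81-fold, log2 fold change 0.85 ± 0.27, adjusted p = 0.0433), a call that held in 1 of 6 fits without 1 library. Against WT the adjusted p for Itga5 was 0.0775 in Tumor (0.0486 with DESeq2, 0.00428 without a filter and 0.0216 in the compared groups alone) and 0.214 in Lyso (0.0193 without a filter).

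Itga8, an RGD-binding chain of mesenchymal cells, was lower in Tumor, at 0.650, 0.805 and 1.88 CPM, than in WT, at 3.40, 4.22 and 5.37 CPM. The lines held 4.22, 1.54 and 3.18 CPM and Lyso 1.89, 2.98 and 1.94 CPM. The Tumor and WT ranges did not overlap and the level was 4.02-fold lower (log2 fold change -2.01 ± 0.51, adjusted p = 0.0149), with an adjusted p of 0.103 without WT 3, 0.0567 without Tumor 1 and 0.0747 without Tumor 3, on 14 counts in the 3 Tumor libraries together. Itga2b, the platelet alpha chain, stayed between 0.419 and 2.60 CPM and was called in no comparison by the edgeR fit of all libraries.

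Of the laminin-binding chains, Itga6, the partner of both Itgb1 and Itgb4, was at 66.2, 125 and 136 CPM in WT, 168, 60.3 and 100.1 CPM in ITF1, Rel and ITM, 48.4, 52.0 and 55.6 CPM in Lyso, and 74.1, 58.8 and 37.4 CPM in Tumor. The Lyso libraries were below every WT library, and Tumor overlapped with WT. With edgeR neither was called, with a log2 fold change of -1.09 ± 0.35 (adjusted p = 0.104) in Lyso and -0.97 ± 0.36 (adjusted p = 0.077) in Tumor. Lyso was called lower with DESeq2 (0.0441), in the compared groups alone (0.0305) and without a filter (5.23e-05), the last of which also called Tumor (0.000136), and without WT 1 both were called (0.0388 and 0.0233). Itga3 and Itga7 ranged from 0.240 to 2.28 CPM. Itga3 was called higher in Tumor than in the relapsed lines (log2 fold change 1.67 ± 0.49, adjusted p = 0.0308), which held in 1 of 6 fits without 1 library.

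Of the 4 collagen-binding chains, 3 were called higher in Tumor than in WT (75.0%, against 19.0% of all genes) and Itga10 was not called. Of these 3, Itga11 and Itga2 passed the expression filter only with the Tumor libraries, and the call of Itga1 was lost in several fits without 1 library. Itga11 (chromosome 9, 62677826 to 62783982), a receptor for fibrillar collagen known from fibroblasts, was at 6.83, 5.64 and 8.24 CPM in Tumor, and in none of the 9 other libraries did it pass 3 counts. WT held 3 counts in all and Tumor 84, which puts the pooled level in Tumor at 48.0 times that of WT (95% exact counting interval 15.9 to 238). Itga11 entered the fit through Tumor alone, the group in which it is high, and had to differ. Its fitted log2 fold change, which depends on the prior count, was 5.43 ± 0.57 against WT, 5.54 ± 0.45 against the relapsed lines and 5.41 ± 0.47 against Lyso. The summed fibroblast markers given above moved with it in every Tumor library, and their part in it was not tested.

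Itga1, which prefers basement membrane collagen, was found at 13.6, 14.4 and 20.3 CPM in WT, 14.3, 12.5 and 11.7 CPM in ITF1, Rel and ITM, 15.9, 15.3 and 13.9 CPM in Lyso, and 32.8, 31.4 and 20.0 CPM in Tumor. Tumor 4 fell just short of WT 3, while Tumor 1 and Tumor 3 were above all others. The log2 fold change was 0.74 ± 0.22 against WT (adjusted p = 0.031), 1.13 ± 0.21 against the relapsed lines (adjusted p = 0.00183) and 0.90 ± 0.21 against Lyso (adjusted p = 0.00671). The last 2 held in every fit without 1 library, and the first was lost without WT 1 (adjusted p = 0.0583), WT 2 (0.0967), Tumor 1 (0.106) or Tumor 3 (0.121) and in a fit of Tumor and WT alone (0.083).

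Itga2, another collagen receptor, was at 1.13, 0 and 0.413 CPM in WT, up to 0.922 CPM in the relapsed lines, up to 0.943 CPM in Lyso, and 1.63, 2.42 and 3.53 CPM in Tumor. Itga2 averaged 0.618 CPM over the WT, relapsed and Lyso libraries. It passed the expression filter only with the Tumor libraries, in which it is high, so its calls are a description. All Tumor libraries were above the others, with a log2 fold change of 2.53 ± 0.62 against WT (adjusted p = 0.0126), 1.85 ± 0.48 against the lines (adjusted p = 0.0173) and 2.02 ± 0.51 against Lyso (adjusted p = 0.0113). The first rests on 9 counts in WT and 32 in Tumor and was lost without WT 3 (adjusted p = 0.129) or Tumor 4 (0.0589), and the other 2 held in 4 and 3 of 6 such fits. Itga10 ranged from 1.27 to 3.73 CPM and was called in no comparison by the edgeR fit of all libraries. A share of 33.5% of its exonic bases lies under another gene.

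Itga9 (chromosome 9, 118606690 to 118901003), a receptor for tenascin-C, osteopontin and VCAM-1, rose in Tumor. It was at 35.1, 26.6 and 23.9 CPM in WT, 19.4, 54.5 and 36.0 CPM in ITF1, Rel and ITM, 55.6, 48.3 and 57.1 CPM in Lyso, and 75.1, 75.1 and 72.3 CPM in Tumor. The Tumor libraries lay above all others and close together, whereas Rel was 2.80 times as high as ITF1. The level in Tumor was 2.68-fold that of WT (log2 fold change 1.42 ± 0.29, adjusted p = 0.0047), which held in all 6 fits without 1 library, and 2.02-fold that of the relapsed lines (1.02 ± 0.27, adjusted p = 0.0194), which held in 3 of 6. In Lyso every library was above every WT library, with a log2 fold change of 0.96 ± 0.29 and an adjusted p of 0.0841, which DESeq2 (0.0376) and the compared groups alone (0.0101) put past the threshold.

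Its close relative Itga4, which binds VCAM-1 and fibronectin, was at 105, 152 and 133 CPM in WT, 111.5, 147 and 160.4 CPM in ITF1, Rel and ITM, 87.8, 78.8 and 75.2 CPM in Lyso, and 103, 109 and 63.3 CPM in Tumor. Lyso lay below every WT library and every relapsed line. Itga4 was 1.73-fold lower in Lyso than in the lines (log2 fold change -0.79 ± 0.20, adjusted p = 0.0317, held in 1 of 6 fits without 1 library), and against WT the adjusted p was 0.0767 in Lyso and 0.108 in Tumor. DESeq2 called Itga4 lower in Lyso than in WT (0.032), as did the compared groups alone (0.0295) and the fit without WT 1 (0.0419), which also called Tumor (0.0487). In summed alpha level per kilobase, Itga4 and Itga6 together with Itga5 and Itgav made up most of each library, with Itga4 at 17.8% ± 2.28 in WT, 8.63% ± 0.625 in Lyso and 8.84% ± 1.79 in Tumor, and Itgav at 15.9% ± 2.66, 28.5% ± 1.37 and 24.0% ± 2.91 (SD, n = 3).

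The leukocyte alpha chains were near the floor. Itgal, the alpha chain of LFA-1, was at 0.566, 0.422 and 0.0590 CPM in WT, 1 count in each library, at 0.230, 0.0670 and 0.120 CPM in the relapsed lines, at 0.754, 0.838 and 1.13 CPM in Lyso, and at 2.60, 1.41 and 1.18 CPM in Tumor. Lyso and Tumor were above all WT libraries and all lines. Itgal had 3 counts or fewer in every WT library and every line and passed the filter through Lyso and Tumor, the groups in which it is higher. Its calls against WT and the lines were thus favoured in advance by the filter and are a description. Tumor held 20 counts and WT 3, a ratio of 11.4 (95% exact counting interval 3.39 to 60.1), with a fitted log2 fold change of 3.30 ± 0.75 (adjusted p = 0.00795, or 0.198 without WT 3). Itgal was also called higher in Tumor (3.5 ± 0.61, adjusted p = 0.00125, in all 6 fits without 1 library) and in Lyso (2.64 ± 0.57, adjusted p = 0.014, in 4 of 6) than in the relapsed lines, while Lyso against WT had an adjusted p of 0.0822.

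The summed T and NK cell markers were at 10.5 to 12.3 CPM in Lyso, whose granules came from T cells, with 4 of 12 above the floor in every library and Klrb1c at 0. They were at 1.27 to 6.79 CPM in WT, 0.603 to 1.86 CPM in the relapsed lines and 3.62 to 9.42 CPM in Tumor. The largest was Lck, at a mean of 5.78 CPM in Lyso, 3.14 CPM in WT and 4.08 CPM in Tumor. Lck was not called in Lyso against WT (adjusted p = 0.307). Cd8a and Cd8b1 had means of 1.85 and 1.275 CPM in Lyso and 0 CPM in WT. The part of T and NK cells in the levels of Itgal was not tested. Itgam and Itgax, of myeloid cells, had 0 counts in all 9 libraries outside Tumor and 13 and 5 counts in Tumor, which for Itgam is at least 7.43-fold the level that 3 counts over the WT libraries would give. A share of 68.7% of the exonic bases of Itgam is shared with another gene on the same strand. Itgae, of mucosal T cells, had 9 counts in WT, 22 in the relapsed lines, 10 in Lyso and 0 in Tumor.

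**Figure D3:**
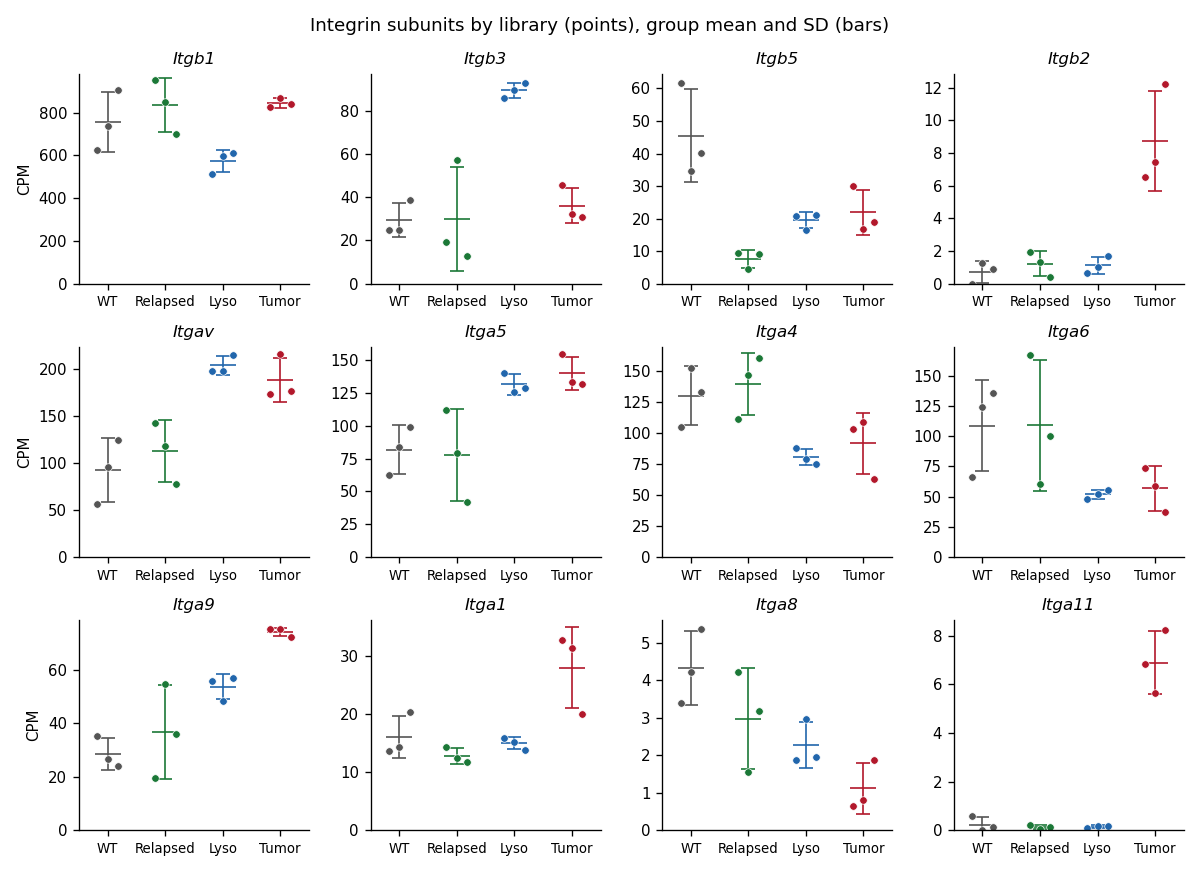
Levels (vertical axis, CPM, linear from 0) of 12 integrin subunits in each library (points), with group means and SD (bars), 3 libraries a group. Itgb5 is highest in the 3 WT libraries, Itgb3 in the 3 Lyso libraries, Itgav and Itga5 in Lyso and Tumor, and Itga9, Itgb2 and Itga11 in the 3 Tumor libraries.

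Of the 14 tested focal adhesion proteins, 4 were called in Tumor against WT, 3 higher and 1 lower (28.6%, against 19.0% of all genes). In Lyso against WT edgeR called 0 of the 14 (4.71% of all genes) and DESeq2 0. At an unadjusted p under 0.05 edgeR had 5 of the 14, and 2789 of all 14924 genes tested. The highest levels per kilobase in WT were those of Ilk (48.5 CPM per kilobase), Zyx (48.2), Parvb (39.1) and Tln1 (38.2), and Ilk shares 89.7% of its exonic bases with Taf10 on the opposite strand, from which its reads cannot be told apart where the counting took no account of strand.

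Kindlin-2 and vinculin rose in Tumor. Fermt2 (chromosome 14, 45458795 to 45530118), the kindlin that helps talin switch on integrins, was at 143, 146 and 145 CPM in WT, 141, 141 and 178 CPM in ITF1, Rel and ITM, 127.5, 129.9 and 122 CPM in Lyso, and 253, 261 and 258 CPM in Tumor. It was nearly the same in the 3 WT libraries, and all Tumor libraries lay well above the 9 others. The level in Tumor was 1.77-fold that of WT (log2 fold change 0.83 ± 0.11, adjusted p = 0.000288), 1.68-fold that of the relapsed lines (0.75 ± 0.11, adjusted p = 0.000417) and 2.04-fold that of Lyso (1.03 ± 0.11, adjusted p = 3.52e-05), and each of these calls held in all 6 fits without 1 library.

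Vcl (chromosome 14, 20929398 to 21033676) encodes vinculin, which binds talin under load and links it to actin. It was found at 31.7, 64.6 and 88.6 CPM in WT, 89.1, 71.6 and 41.5 CPM in ITF1, Rel and ITM, 76.7, 85.5 and 82.1 CPM in Lyso, and 121, 165 and 193.5 CPM in Tumor. Tumor was above all others. The level was 2.51-fold that of WT (log2 fold change 1.33 ± 0.32, adjusted p = 0.0122), 2.38-fold that of the lines (1.25 ± 0.32, adjusted p = 0.0143) and 1.97-fold that of Lyso (0.98 ± 0.31, adjusted p = 0.0382). WT 1 was the lowest library for Vcl, and without it the log2 fold change against WT was 1.04 (adjusted p = 0.0182), whereas without Tumor 4 the adjusted p was 0.0517. The call against Lyso held in 1 of 6 fits without 1 library. In the relapsed lines and in Lyso the log2 fold change of Vcl against WT was 0.08 ± 0.32 (adjusted p = 0.974) and 0.35 ± 0.32 (adjusted p = 0.623), and both turned below 0 against WT 3 alone (-0.39 and -0.13). The overlap of Vcl with Ap3m1 on the opposite strand covers 25.5% of its exonic bases.

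The promoters of Vcl (chr14:20929148-20929397, plus strand) and Fermt2 (chr14:45530119-45530315, minus strand) are shown because both genes rose in Tumor and both hold a CArG box, CC and GG around 6 bases of A or T, before the start site. The sequences are those of RefSeq for GRCm38.p6, with motif matches in capitals, and for Fermt2 they stop where the annotated gene begins.
Vcl: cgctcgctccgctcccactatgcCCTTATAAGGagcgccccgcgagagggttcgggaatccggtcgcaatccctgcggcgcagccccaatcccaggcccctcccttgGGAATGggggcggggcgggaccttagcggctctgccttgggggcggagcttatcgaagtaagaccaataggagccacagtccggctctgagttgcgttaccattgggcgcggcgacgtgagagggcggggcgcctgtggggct
Fermt2: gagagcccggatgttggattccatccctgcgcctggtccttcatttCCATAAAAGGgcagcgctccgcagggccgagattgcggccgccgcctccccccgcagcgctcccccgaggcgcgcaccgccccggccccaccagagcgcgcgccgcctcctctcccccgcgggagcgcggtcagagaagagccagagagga
The first run of capitals in Vcl and the run in Fermt2 are the CArG boxes, at -227 to -218 and at -204 to -195 from the start site, and the second run in Vcl is the TEAD motif. Motifs were counted in RefSeq windows that also take in the first bases of the transcript, which were found for 29 members (32 windows), and the CArG box was in those of Fermt2, Vcl and Itgb6, of which Itgb6 was not expressed, against 1.63% of all 32851 promoters. The TEAD motif was in those of Itga10, Itgb1 and Vcl (14.7% of all), the AP-1 motif in those of Itga3, Itga9, Itgax and Zyx (7.81%), the EGR motif in that of Zyx (3.47%) and the STAT motif in that of Itga10 (8.30%). A match describes the letters and is no evidence of binding.

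Of the talins, Tln2 was called lower in Tumor than in WT and Tln1 was not called. Tln1, the talin of most adherent cells, was at 327, 358 and 438.5 CPM in WT, 476, 400.5 and 356 CPM in ITF1, Rel and ITM, 384, 366 and 365 CPM in Lyso, and 402, 489 and 517 CPM in Tumor. Each group overlapped with WT, while every Tumor library lay above every Lyso library. A fit of Tumor and Lyso alone called Tln1 higher in Tumor (log2 fold change 0.34, adjusted p = 0.011). The fit of all libraries did not call it. Set against WT, the Tln1 log2 fold change came to 0.32 ± 0.15 in Tumor (adjusted p = 0.159). It was 0.13 ± 0.15 in the relapsed lines (adjusted p = 0.788) and -0.01 ± 0.15 in Lyso (adjusted p = 0.991). The last 2 had a sign that changed between settings. Tln2, its long relative, was at 38.5, 128 and 149 CPM in WT, 121, 69.4 and 98.3 CPM in ITF1, Rel and ITM, 54.2, 57.6 and 58.0 CPM in Lyso, and 50.1, 52.5 and 45.2 CPM in Tumor.

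WT 1 was the lowest of all 12 libraries for Tln2, under the Tumor range, while WT 2 and WT 3 were far above it. The level in Tumor was 2.19-fold lower than in WT (log2 fold change -1.13 ± 0.35, adjusted p = 0.0396), and without WT 1 the log2 fold change was -1.50 (adjusted p = 0.000191). The call was lost without WT 2 (adjusted p = 0.108), WT 3 (0.195), Tumor 1 (0.0995), Tumor 3 (0.0974) or Tumor 4 (0.12), in a fit of the compared groups alone (0.098) and with at least 10 counts in every library (0.0557). Fermt3, the kindlin of blood cells, ranged from 0.479 to 3.901 CPM and was called higher in Tumor than in the relapsed lines (log2 fold change 1.84 ± 0.42, adjusted p = 0.00792). Fermt1, the kindlin of epithelia, had 0 counts in all 12 libraries.

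The tensins bind beta tails and actin at mature adhesions, and Tns1 (chromosome 1, 73910231 to 74124449) was the focal adhesion protein that set the relapsed lines apart. It was at 10.8, 5.91 and 10.3 CPM in WT, 2.46, 3.15 and 2.46 CPM in ITF1, Rel and ITM, 14.5, 13.9 and 12.2 CPM in Lyso, and 17.6, 16.9 and 14.6 CPM in Tumor. The 3 lines were below every other library, and Lyso and Tumor were above every WT library. Tns1 was 3.39-fold lower in the lines than in WT (log2 fold change -1.76 ± 0.23, adjusted p = 0.0217), and higher than in the lines by 6.05-fold in Tumor (2.60 ± 0.22, adjusted p = 4.52e-06) and 5.02-fold in Lyso (2.33 ± 0.22, adjusted p = 5.95e-05). The last 2 held in all 6 fits without 1 library. The first was lost without WT 3 (adjusted p = 0.217) and in a fit of the lines and WT alone (0.61), and with WT 3 as the only control the log2 fold change was -1.93 (adjusted p = 0.0085).

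In Tumor Tns1 was 1.78-fold higher than in WT (log2 fold change 0.83 ± 0.22, adjusted p = 0.0201), a call lost without WT 2 (adjusted p = 0.0583), Tumor 1 (0.0586) or Tumor 3 (0.0685) and in a fit of Tumor and WT alone (0.0533). Tns2 was at 81.5, 41.8 and 44.8 CPM in WT, 47.6, 79.0 and 62.0 CPM in ITF1, Rel and ITM, 105, 81.0 and 79.6 CPM in Lyso, and 94.9, 86.2 and 71.1 CPM in Tumor. It overlapped between the groups through WT 1, and neither it nor Tns3, at 42.5 to 105.8 CPM over the libraries, was called by edgeR in the fit of all libraries. Without WT 1 Tns2 was called higher than WT in Tumor (0.94 on the log2 scale, adjusted p = 0.00802) and in Lyso (1.03, adjusted p = 0.015). Tns4 had 3, 8, 5 and 5 counts in WT, the lines, Lyso and Tumor.

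ILK, a pseudokinase, holds the parvins at the beta tail. Ilk was at 133, 123 and 143 CPM in WT, 186, 148 and 129 CPM in ITF1, Rel and ITM, 104, 106.5 and 106 CPM in Lyso, and 159, 170.5 and 184.5 CPM in Tumor. The Lyso libraries were the lowest of all and nearly alike, and Tumor was above WT. Ilk was called higher in Tumor than in Lyso (1.63-fold, log2 fold change 0.70 ± 0.13, adjusted p = 0.00202, in all 6 fits without 1 library) and lower in Lyso than in the relapsed lines (1.46-fold, -0.55 ± 0.13, adjusted p = 0.0241, in 2 of 6). Against WT it was not called, with an adjusted p of 0.0804 in Tumor and 0.19 in Lyso. Parva ranged from 85.5 to 128.8 CPM and Parvb from 123 to 275 CPM over the libraries, and neither was called anywhere.

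Ptk2, which encodes FAK, was called in no comparison by edgeR in the fit of all libraries, although DESeq2 called it higher in Tumor than in Lyso (log2 fold change 0.34, adjusted p = 0.0407). It was at 95.1, 111 and 127 CPM in WT, 117, 106 and 118 CPM in ITF1, Rel and ITM, 102, 101 and 98.6 CPM in Lyso, and 118, 141 and 119 CPM in Tumor. WT spanned most of the other libraries. For Ptk2 the log2 fold change to WT was 0.17 ± 0.12 in Tumor (adjusted p = 0.368), -0.15 ± 0.12 in Lyso (adjusted p = 0.557) and 0.02 ± 0.12 in the relapsed lines (adjusted p = 0.996), the last at -0.01 when scaled by library size alone. Zyx, which gathers at adhesions under tension, was at 366, 174 and 239 CPM in WT, 195, 194 and 134 CPM in ITF1, Rel and ITM, 224.5, 166 and 160.2 CPM in Lyso, and 297, 227 and 265.5 CPM in Tumor, with WT 1 the highest of all libraries, and was called in no comparison by the edgeR fit of all libraries. Pxn, encoding paxillin, was called lower in Tumor (70.5 to 75.7 CPM) than in the relapsed lines (86.7 to 109 CPM), by 1.36-fold (log2 fold change -0.44 ± 0.14, adjusted p = 0.0377, in 1 of 6 fits without 1 library).

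**Figure D4:**
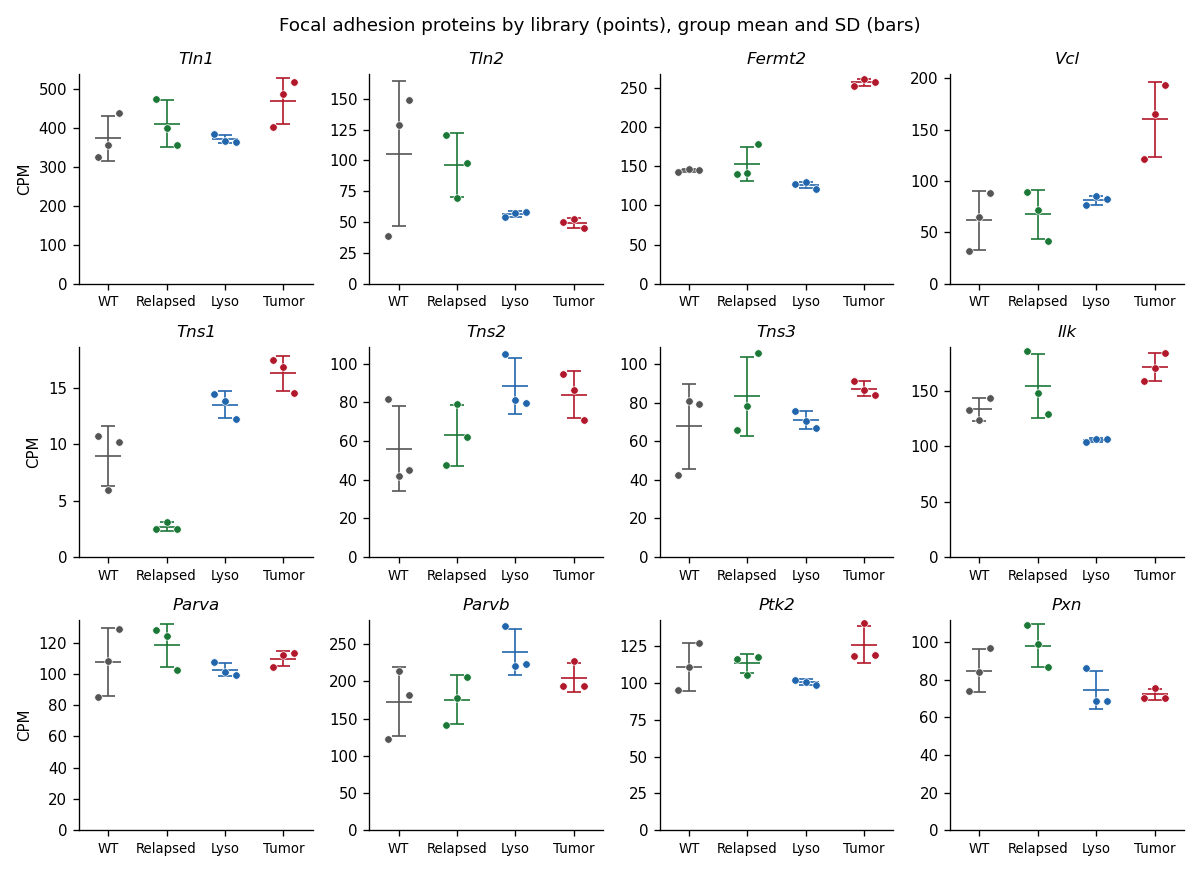
Levels (vertical axis, CPM, linear from 0) of 12 focal adhesion proteins in each library (points), with group means and SD (bars), 3 libraries a group. Fermt2 and Vcl are highest in the 3 Tumor libraries, Tns1 is lowest in the 3 relapsed lines, and Ilk is lowest in the 3 Lyso libraries.

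In the comparisons among the groups other than WT, 14 of 34 members were called between Tumor and the relapsed lines, 13 higher and Pxn lower (41.2%, against 19.6% of all genes). Between Tumor and Lyso 10 were called, 9 higher and Itgb3 lower (29.4%, against 24.7% of all genes). Between Lyso and the lines 7 were called, with Itgal, Itgb3, Itgb5 and Tns1 higher and Itga4, Itgb8 and Ilk lower (20.6%, against 7.69% of all genes). These comparisons share libraries with one another.

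Genes around the members were read from 2 further lists. Of 54 other focal adhesion genes 50 were tested, and in Tumor against WT 9 were higher and 3 lower (24.0%, against 19.0% of all genes). Flnc, the filamin of muscle, reached 10.5 ± 3.57 CPM in Tumor (SD, n = 3) from 0.219 ± 0.212 CPM in WT, and Tgfb1i1, the paxillin relative Hic-5, at 6.83 ± 1.85 against 0.883 ± 0.338 CPM (log2 fold change 2.67 ± 0.40, adjusted p = 0.000536). Elmo1, a partner of the Rac activator Dock1, had a level of 2.29 ± 0.575 CPM in Tumor and 0 counts in every WT library. Flnc and Elmo1 passed the expression filter only with the Tumor libraries, in which they are high, so the share called is a description of the genes that passed. The 3 lower genes were Crk (-0.42 ± 0.11, adjusted p = 0.0157), Ajuba (-0.53 ± 0.14, adjusted p = 0.0162) and Lims2 (-2.30 ± 0.67, adjusted p = 0.03), the last at 18.9 ± 15.9 CPM in WT.

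In Lyso against WT 1 of the 50 was higher (Elmo1, 0.729 ± 0.285 CPM) and 3 were lower (8.0%, against 4.71% of all genes), Ajuba with a log2 fold change of -1.02 ± 0.13 (adjusted p = 0.000837), the adhesion scaffold Kank1 with -0.76 ± 0.19 (0.0369) and the Src family kinase Fyn with -0.53 ± 0.13 (0.0384). In the relapsed lines edgeR called 0 of the 50 (0.0402% of all genes) and DESeq2 0. At an unadjusted p under 0.05 edgeR had 4 of the 50, and 1636 of all 14924 genes tested.

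The ligands of these receptors changed most in Tumor. Of the 34 ligands listed, each found in the table, 29 were tested. In Tumor against WT 21 were higher and 0 lower (72.4%, against 19.0% of all genes). Some of these passed the expression filter through Tumor alone, so the share is a description of the ligands that passed. Examples are Tnc, with a mean of 0 CPM in WT and Lyso and 0.0223 CPM in the lines, and Vcam1, with a mean of at most 0.216 CPM in those groups. Col1a1, a chain of collagen I, stood at 2224 ± 383 CPM in Tumor against 4.35 ± 0.485 CPM in WT (log2 fold change 8.95 ± 0.36, adjusted p = 1.03e-08), and Col1a2 had a log2 fold change of 9.04 ± 0.37 (adjusted p = 1.18e-08). Fibrillin-1 (Fbn1) was at 322 ± 32.7 against 0.216 ± 0.375 CPM and thrombospondin-2 (Thbs2) at 123 ± 54.5 against 0.922 ± 0.401 CPM. Col1a1, Col1a2 and Postn are also among the fibroblast markers summed above, and the part of such cells in these levels was not tested.

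In Lyso against WT 0 of the 29 ligands were higher and 3 lower (10.3%, against 4.71% of all genes). Periostin (Postn) had a log2 fold change of -2.17 ± 0.35 (adjusted p = 0.0032), Col1a1 -1.76 ± 0.39 (0.0202), and Ccn1, a matrix protein read by alpha v and alpha 6 integrins, -1.74 ± 0.28 (0.00347), at 35.0 ± 2.77 CPM in Lyso and 115 ± 42.1 CPM in WT. In the relapsed lines edgeR called 0 of the 29 (0.0402% of all genes) and DESeq2 2, both lower. At an unadjusted p under 0.05 edgeR had 9 of the 29, and 1636 of all 14924 genes tested.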

How the data were processed

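The authors trimmed reads with fastp 0.19.6, aligned them to GRCm38 with STAR 2.7.1a and, deposited a table of unnormalized read counts for each gene with a column for every library. The annotation release and the strand setting are not given in the sources used here. Of the 12 columns 0 were unused, and 4 rows that name no gene, with 60.64% to 63.83% of the reads of a library, were left out. Symbols, positions and exonic lengths came from GENCODE vM21 (54165 of the 54232 identifiers matched), and promoters from RefSeq.

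The counts were tested with edgeR 4.0.16 in R 4.3.3 (TMM, filterByExpr by group, glmQLFit and glmQLFTest) in 1 fit of all 12 libraries, with Benjamini-Hochberg adjustment over 14924 genes and a threshold of 0.05. This replaces the DESeq2 1.24.0 of the study, and DESeq2 1.42.0 was an alternative. The SE was obtained by dividing a log2 fold change by the root of its F statistic. CPM per kilobase divides by the union of exons. Tables and figures used Python 3.11.15. Counting intervals and the floor of 3 counts cover counting error only, and reads without molecular identifiers are not independent molecules.

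On simulated counts for Tumor against WT with 200 genes changed by 2 on the log2 scale, edgeR recovered 200 and called 8 others of 14498 genes. In the relapsed lines against WT of the same counts, where no gene was changed, it called 0 genes. Every gene and group had the same dispersion of 0.05, and only genes well above the floor were changed. The simulation therefore does not cover an unequal spread between groups or members near the floor.

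The members and lists were chosen with earlier results of these data known. Values by library are given for members called against WT and for the most abundant of each role. Fold changes are given for calls and, against WT, for Itgb1, Itgb3, Itgav, Ptk2, Tln1 and Vcl, and the 2 further lists are given by counts with at most 4 genes in each direction. Some further values fall outside this rule and were chosen after they were seen. Alternatives were DESeq2, RLE and library-size scaling, no filter, at least 10 counts in every library, the compared groups alone, the replicate number as a block, WT 3 as the only control, an absolute log2 fold change over 1 and each library left out.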

Additional observations from a re-analysis of the deposited data

Results flagged for a closer look

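The expression filter kept 7 members out of the test, and among these the following passed 3 counts in a library of another group while every WT library was at or under 3 counts. Itgam reached 8 counts in a Tumor library, with 13 over the group and 0 in WT. Itgb7 reached 15 counts in a Lyso library (all 3 above 3 counts, 28 in all) and 8 in a relapsed line, against 2 in WT. Tns4 reached 5 counts in a relapsed line, 4 in a Lyso library and 4 in a Tumor library, against 3 in WT over all its libraries. WT 1 and WT 2 were the shallowest libraries, so low counts there limit these contrasts.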

How the results depend on the processing

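The number of members called in Tumor against WT (13) was 7 with at least 10 counts in every library and 7 to 14 with 1 library left out. In Lyso against WT (2) it was 6 with DESeq2, 9 without a filter, 6 in the compared groups alone, 7 with the replicate block, 1 with WT 3 as the only control and 0 to 5 with 1 library left out. In the relapsed lines against WT (2) it was 0 in the compared groups alone and 0 to 2 with 1 library left out, the 0 without WT 3. In Tumor against the lines (14) it was 22 without a filter, 7 with at least 10 counts and 9 to 16 with 1 library left out, in Tumor against Lyso (10) it was 16 in the compared groups alone, 6 with at least 10 counts, 6 over an absolute log2 fold change of 1 and 5 to 7 with 1 library left out, and in Lyso against the lines (7) it was 12 without a filter, 4 in the compared groups alone and 1 to 8 with 1 library left out. The share of all genes called was not set beside the counts under other settings. Those counts show how the calls depend on the setting and are no result about the members. No called member changed direction in any setting. Small uncalled log2 fold changes did: in Lyso against WT, Tln1 was 0.01 with at least 10 counts and -0.10 to 0.13 with 1 library left out, and Vcl -0.13 against WT 3 alone; in the lines against WT, Itgav was -0.14, Itgb1 -0.12, Tln1 -0.09, Vcl -0.39 and Ptk2 -0.17 against WT 3 alone, Ptk2 was -0.01 with DESeq2 and -0.01 by library size, and with 1 library left out Vcl ran from -0.22 to 0.45, Itgb3 from -0.94 to 0.31 and Ptk2 from -0.09 to 0.13. The cause was not tested, apart from the fewer libraries or genes some settings hold.

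The replicate numbers did not pair the libraries. The deviations of same-numbered libraries of WT, Lyso and Tumor correlated at 0.065 at most, so the block (10 members called in Tumor against WT) only shares numbers. Depth limits the leukocyte chains, Itga2 and Itga11 in WT 1 and WT 2. The level of Itga6 per kilobase in WT moved from 12.1 to 25.3 with the longest coding transcript.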
